A study of Arabidopsis thaliana with 48 samples.

Results

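The genes AT2G37870, AT3G53980, AT4G33550, LTP3 (AT5G59320) and LTP4 (AT5G59310) of Arabidopsis thaliana are 5 of the 26988 genes measured in the rosettes of plants that were kept well watered or left to dry. They were chosen by 2 measured values, a higher transcript level under drought in wild type for all 5 and, for AT2G37870, AT3G53980 and AT4G33550, the loss of most of that rise in gi-2. Both values are therefore given as a description, with no test. The gi-2 plants carry a mutation of GIGANTEA (GI), a protein of the circadian clock and of day-length sensing. The aba1-6 plants carry a mutation of ABA1, zeaxanthin epoxidase, an early enzyme in making the hormone abscisic acid (ABA). Both were compared with wild-type Col-0. Each genotype was grown in short days of 8 h of light for 3 weeks and either dried to 30% relative soil water content (drought) or held at 80 to 90% (normal watering). Aerial parts were taken 1, 8, 12 and 16 h after lights on (ZT1, ZT8, ZT12 and ZT16), and on the harvest day the light was extended past ZT8, so ZT12 and ZT16 fell in light that the plants normally spend in darkness. Each of the 24 combinations of genotype, watering and time had 2 libraries of poly(A) RNA, labelled as biological replicates, each from about 50 seedlings of 3 pots pooled. A single allele of each gene was used.

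Non-specific lipid transfer proteins are small, cysteine-rich, mostly secreted proteins with a hydrophobic cavity that binds lipids. Many are made in the epidermis, and members of the family have been linked to the deposition of cutin and wax, the waterproof layer that limits water loss from leaves. ABA accumulates when leaves dry, and many of its target genes carry the sequence ACGTG, the core of the ABA-responsive element, in their promoters. LTP3 is a known target of MYB96, an ABA-responsive activator of wax genes. The RefSeq annotation (TAIR10.1) names LTP3 and LTP4 as lipid transfer proteins and the other 3 only as members of the bifunctional inhibitor, lipid-transfer protein and seed storage albumin superfamily. Roles of those 3 are not stated here.

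All 5 are short genes with 2 exons. AT2G37870 lies on chromosome 2 at 15859204 to 15859942 (forward strand), AT3G53980 on chromosome 3 at 19987562 to 19988463 (reverse strand) and AT4G33550 on chromosome 4 at 16134366 to 16135134 (forward strand). LTP4 at 23924990 to 23925957 (reverse strand) and LTP3 at 23928954 to 23929816 (forward strand) lie head to head on chromosome 5, with 2996 bases and 0 annotated protein-coding genes between them. The first 239 coding bases of LTP3 and LTP4, up to the first gap of their alignment, are shown because they are alike enough for reads of the 2 genes to be confused; capitals mark the 32 bases that differ between them.
LTP3: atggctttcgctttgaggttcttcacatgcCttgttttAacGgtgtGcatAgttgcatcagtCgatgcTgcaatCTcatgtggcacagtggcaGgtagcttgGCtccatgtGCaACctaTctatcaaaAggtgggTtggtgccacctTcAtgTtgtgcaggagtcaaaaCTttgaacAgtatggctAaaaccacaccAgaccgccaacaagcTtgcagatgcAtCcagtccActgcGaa
LTP4: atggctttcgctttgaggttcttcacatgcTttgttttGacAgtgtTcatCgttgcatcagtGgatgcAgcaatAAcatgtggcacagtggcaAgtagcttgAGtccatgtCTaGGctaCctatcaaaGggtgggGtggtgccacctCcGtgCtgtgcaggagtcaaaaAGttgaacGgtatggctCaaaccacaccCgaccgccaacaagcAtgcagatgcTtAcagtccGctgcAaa
Over their whole coding sequences they shared 294 of 348 aligned columns (84.5% identity), with 45 substituted columns, 9 columns that only LTP3 has, and a longest identical run of 44 bases. The other 9 pairs among the 5 genes were 44.8 to 56.4% identical, with identical runs of at most 13 bases. How reads were divided between LTP3 and LTP4 was the work of the authors' counting, so the level of each of these 2 is uncertain in a way that those of the other 3 are not.

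The 250 bases before each gene's annotated start were searched on both strands for ACGTG, for the dehydration-responsive core CCGAC, for the evening element AAATATCT of clock-controlled genes, and for the G-box CACGTG, which contains ACGTG. Among these 5 windows a single match was found, an ACGTG on the reverse strand of the AT2G37870 window, 47 bases before the gene's start. Of 27437 windows of the same length before protein-coding genes, 22.9% held ACGTG, 12% CCGAC, 4.79% the evening element and 6.49% the G-box. The window of AT2G37870 is chr2:15858954-15859203 of TAIR10.1, forward strand, printed because it holds the match; capitals mark CACGT, which reads ACGTG on the other strand.
AT2G37870: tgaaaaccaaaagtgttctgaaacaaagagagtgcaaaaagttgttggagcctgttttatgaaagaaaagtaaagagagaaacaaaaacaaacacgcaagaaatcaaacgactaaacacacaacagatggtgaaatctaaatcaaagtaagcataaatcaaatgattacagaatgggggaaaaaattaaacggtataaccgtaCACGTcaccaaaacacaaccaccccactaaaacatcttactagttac

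Libraries held 1920012 to 26925706 assigned reads (median 8778260), as summed expected counts. Of the small whole values of a library, 66.8 to 80.2% were even. The cause was not tested, so the counts may not be numbers of independent reads. Levels are given as CPM (reads of a gene as a share of the library, scaled to a common total) on totals scaled by TMM, a factor that evens out composition between libraries. The library labelled gi-2, drought, ZT16, replicate 2 has a title that says gi-2 and a genotype entry that says wild type; it was kept by its title, and values without it are given where they matter. Its GI level was 56.1 CPM, beside 54.3 CPM in its partner and 22.8 and 13.9 CPM in the wild-type libraries of that group. At matched times GI transcript set the libraries labelled gi-2 apart from wild type: at ZT16 it was 51.5 to 56.1 CPM in gi-2 and 11.2 to 22.8 CPM in wild type, at ZT12 99.4 to 118 and 61.5 to 89.5 CPM, and at ZT8 134 to 165 and 243 to 315 CPM, and the library with the conflicting entry lay with gi-2. ABA1 transcript was present in aba1-6 and overlapped wild type at ZT8, ZT12 and ZT16, so it does not check the aba1-6 labels at those times. At ZT1 it was 559 to 654 CPM in aba1-6 and 674 to 983 CPM in wild type, without overlap. The harvested tissue was leafy: 4 photosynthesis genes summed to 20294 to 47366 CPM, while 4 seed genes summed to at most 0.622 CPM and 4 floral genes to at most 4.35 CPM. Another 3 genes of guard cells summed to 39.5 to 84 CPM, and 6 root genes, nearly all of it PYK10, to 395 to 1346.7 CPM. The 4 epidermis genes (ATML1, PDF1, FDH and CER6) had a median sum of 1595.4 CPM in drought and 1774.6 CPM in normal gi-2, 994 and 1195 CPM in aba1-6, and 1238 and 1496.2 CPM in wild type; the part of epidermal cells in the results below was not tested. In whole rosettes, more cells expressing a gene and more transcript per cell cannot be told apart.

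In wild type every drought library was above every normally watered one for each of the 5 genes, which were chosen for this rise. AT2G37870 had 9.49 CPM at the lowest, 18.9 at the median and 44.7 at the highest in the 8 wild-type drought libraries, against 0, 0.807 and 1.95 CPM in the 8 normally watered ones. The means were 20.6 ± 11.4 CPM under drought and 0.821 ± 0.62 CPM under normal watering (SD, n = 8 each), a ratio of 25.1. The transcript was thus close to absent in watered leaves and well measured in dry ones. AT3G53980 had 21.5, 28.7 and 53.6 CPM (lowest, median, highest) under drought and 0.926, 3.87 and 6.67 CPM under normal watering, with means of 32.5 ± 10.5 and 3.81 ± 2.23 CPM and a ratio of 8.52. AT4G33550 had 9.55, 15.1 and 24.7 CPM under drought and 0.778, 1.32 and 3.58 CPM under normal watering, with means of 15.1 ± 5.0 and 1.54 ± 0.943 CPM and a ratio of 9.78. None of these 3 genes had a watered library within the drought range.

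LTP3 and LTP4 were the most abundant of the 5 in wild type, and they started from a higher and more variable watered level. LTP3 had 66.3, 117 and 248 CPM under drought and 4.82, 22.4 and 57.4 CPM under normal watering, with means of 146 ± 64.8 and 24.7 ± 17.4 CPM and a ratio of 5.9. LTP4 had 28.7, 61.6 and 158 CPM under drought and 0.311, 9.04 and 27.8 CPM under normal watering, with means of 71.1 ± 42.3 and 11.1 ± 10.4 CPM and a ratio of 6.38. The lowest drought and the highest watered library lay close together, at 66.3 and 57.4 CPM for LTP3 and 28.7 and 27.8 CPM for LTP4. Per kilobase of transcript, the wild-type drought means were 32 CPM for AT2G37870, 40.5 for AT3G53980, 21.9 for AT4G33550, 190 for LTP3 and 85.7 for LTP4, so LTP3 was the highest of the 5 on that scale too. Across all genes tested, 69 (0.362%) had their 8 wild-type drought libraries all above their 8 watered ones; that share is background only, since the 5 genes were chosen for this difference.

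**Figure D1:**
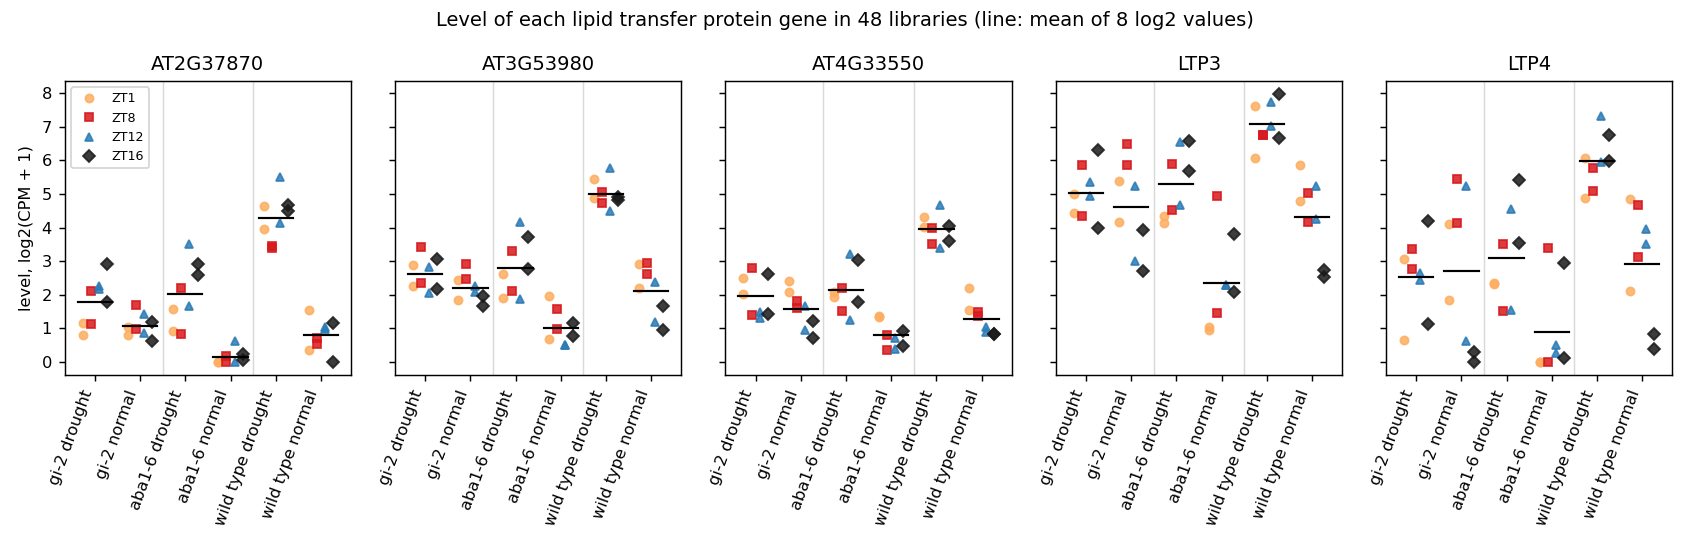
Level of each gene in every library as log2(CPM + 1), by genotype and watering, with drought left of normal; points are libraries and the bar is the mean of 8 log2 values. Wild-type drought libraries lie above all wild-type normal libraries for all 5 genes, while in gi-2 the 2 waterings overlap for each gene.

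In gi-2 the drought and watered levels of AT3G53980 and AT4G33550 lay close together, and those of AT2G37870 lay farther apart. AT2G37870 had 0.728, 2.89 and 6.47 CPM (lowest, median, highest) in gi-2 drought libraries and 0.549, 1.02 and 2.27 CPM in watered ones. Its means were 2.84 ± 1.88 and 1.17 ± 0.564 CPM, a ratio of 2.42, the largest of the 5 genes in gi-2, with 5 of 8 drought libraries above every watered one. AT3G53980 had 3.11, 5.14 and 9.73 CPM under drought and 2.2, 3.51 and 6.57 CPM under normal watering, with means of 5.51 ± 2.3 and 3.8 ± 1.4 CPM and a ratio of 1.45. AT4G33550 had 1.49, 2.44 and 5.96 CPM under drought and 0.64, 2.12 and 4.35 CPM under normal watering, with means of 3.19 ± 1.82 and 2.16 ± 1.23 CPM and a ratio of 1.48. The ranges of the 2 waterings overlapped for all 3 genes. No member had all its gi-2 drought libraries above the watered ones, as 14 genes (0.0735%) did.

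LTP3 and LTP4 also stayed low in dry gi-2 leaves. The choice of genes named no gi-2 value for them. It did use their high wild-type drought levels, and reads of LTP3 and LTP4 can be confused, so neither gene is independent support. LTP3 had 14.9, 30.5 and 77.8 CPM in gi-2 drought libraries and 5.58, 26.8 and 88.3 CPM in watered ones, with means of 36.4 ± 21.6 and 33.4 ± 28.7 CPM and a ratio of 1.09. LTP4 had 0.582, 5.54 and 17.3 CPM under drought and 0, 9.34 and 42.7 CPM under normal watering, with means of 6.39 ± 5.25 and 14.4 ± 17 CPM and a ratio of 0.444. LTP4 is the only member whose mean was lower in dry than in watered gi-2 leaves. Within gi-2, its time-averaged log2 fold change was 0.18 ± 1.1, of the opposite sign to the ratio of means, because the log2 value at ZT16, where both watered libraries had 0 and 0.22 CPM, was 5.86 ± 2.76 while those at ZT1, ZT8 and ZT12 were -1.3 ± 1.59, -1.93 ± 1.35 and -1.89 ± 1.54. Without the ZT16 drought library with the conflicting label, the time-averaged value was -0.52.

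Set against wild type under drought, gi-2 lay below in nearly every library. For AT2G37870, AT3G53980, AT4G33550 and LTP4, all 8 gi-2 drought libraries were below the lowest wild-type drought library. For LTP3, 7 of 8 were. All were chosen for their rise in wild-type drought libraries, and AT2G37870, AT3G53980 and AT4G33550 also for losing most of it in gi-2. The separation is therefore a description, and how many of all genes separate in this way was not counted. Time-averaged log2 fold changes of gi-2 over wild type under drought were -2.92 ± 0.39 for AT2G37870, -2.56 ± 0.33 for AT3G53980, -2.28 ± 0.3 for AT4G33550, -1.99 ± 0.44 for LTP3 and -3.43 ± 0.71 for LTP4 (± SE). Under normal watering they were 0.67 ± 0.6, 0.35 ± 0.43, 0.56 ± 0.41, 0.38 ± 0.51 and -0.24 ± 1.34 in that order. The library with the conflicting label was the highest gi-2 drought library for AT2G37870, LTP3 and LTP4, at 6.47, 77.8 and 17.3 CPM. Without it the gi-2 drought means were 2.32 ± 1.28, 5.26 ± 2.35, 2.91 ± 1.77, 30.4 ± 14.6 and 4.84 ± 3.11 CPM (n = 7) for AT2G37870, AT3G53980, AT4G33550, LTP3 and LTP4. The ratios to the gi-2 watered mean were then 1.98, 1.39, 1.35, 0.911 and 0.336, so that of LTP3 passed below 1. The levels in that library were 0.205 to 0.446 of the wild-type drought ZT16 mean.

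In aba1-6 the 5 genes were higher under drought than under normal watering, from a lower watered level and to a lower dry level than in wild type. AT2G37870 had 0.788, 2.86 and 10.5 CPM in aba1-6 drought libraries and 0, 0.0201 and 0.529 CPM in watered ones, of which 4 had no read. Its means were 3.93 ± 3.32 and 0.112 ± 0.183 CPM, a ratio of 35 that rests on watered levels near 0. Its dry and watered libraries did not overlap. Across all genes tested, 22 (0.116%) did so in aba1-6. That share is background only, since the genes were chosen for a rise with drought. AT3G53980 had 2.69, 5.46 and 16.9 CPM under drought and 0.423, 0.855 and 2.86 CPM under normal watering, with means of 7.19 ± 5.11 and 1.15 ± 0.857 CPM and a ratio of 6.24. AT4G33550 had 1.4, 3.05 and 8.18 CPM under drought and 0.28, 0.691 and 1.56 CPM under normal watering, with means of 3.84 ± 2.47 and 0.792 ± 0.512 CPM and a ratio of 4.85. These 2 genes overlapped between the waterings by their lowest drought libraries.

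LTP3 had 16.5, 37.3 and 93.6 CPM in aba1-6 drought libraries and 0.92, 3.53 and 29.4 CPM in watered ones, with means of 47.1 ± 32 and 7.12 ± 9.78 CPM and a ratio of 6.62. LTP4 had 1.89, 7.17 and 41.2 CPM under drought and 0, 0.146 and 9.44 CPM under normal watering, with 3 of 8 watered libraries at 0, means of 12.1 ± 13.6 and 2.11 ± 3.75 CPM and a ratio of 5.72. Both overlapped between waterings, each with a watered aba1-6 library at ZT8 above the lowest drought libraries. Under drought, aba1-6 over wild type was -2.51 ± 0.35 for AT2G37870, -2.22 ± 0.31 for AT3G53980, -1.97 ± 0.28 for AT4G33550, -1.75 ± 0.43 for LTP3 and -2.75 ± 0.65 for LTP4 (log2 ± SE). All 8 aba1-6 drought libraries were below the lowest wild-type drought library for AT3G53980 and AT4G33550, 7 of 8 for AT2G37870 and LTP4, and 6 of 8 for LTP3. These counts are a description, since the high level of the wild-type drought libraries chose the genes. The share of all genes that separate so was not counted.

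**Figure D2:**
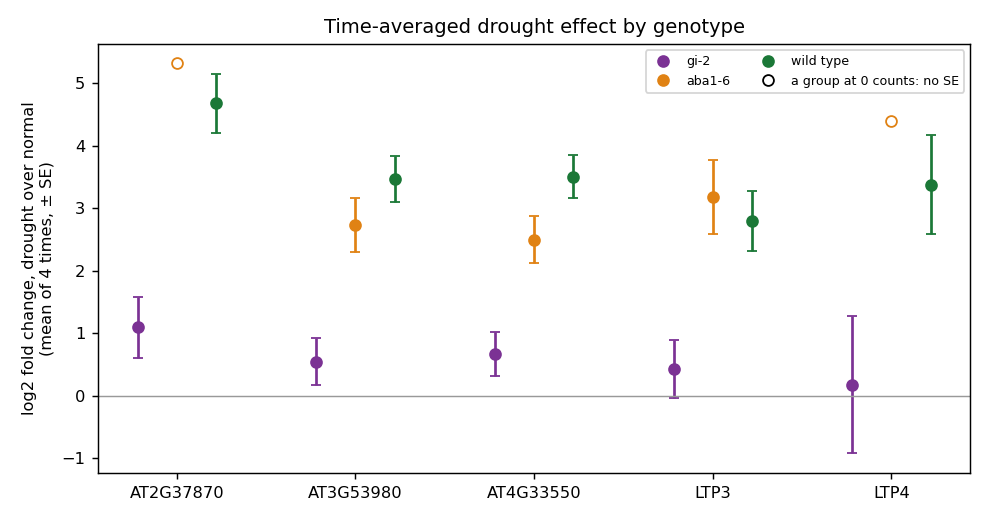
Time-averaged log2 fold change of drought over normal watering for each gene in gi-2, aba1-6 and wild type, with the SE of the fit as bars; open symbols, without an SE, are fits in which a group of 2 libraries had 0 reads. The wild-type values lie between 2.8 and 4.68 and the gi-2 values between 0.18 and 1.1.

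On the log2 scale of the fit, with the 4 times weighted equally, gi-2 changed with drought by 1.1 ± 0.49 for AT2G37870, 0.55 ± 0.38 for AT3G53980, 0.67 ± 0.35 for AT4G33550, 0.43 ± 0.46 for LTP3 and 0.18 ± 1.1 for LTP4. In aba1-6 it was 2.74 ± 0.43 for AT3G53980, 2.5 ± 0.38 for AT4G33550 and 3.18 ± 0.59 for LTP3; the fitted values for AT2G37870 and LTP4 rest on a watered group at 0 and are given above as levels. In wild type it was 4.68 ± 0.47, 3.47 ± 0.37, 3.51 ± 0.35, 2.8 ± 0.48 and 3.38 ± 0.79 for AT2G37870, AT3G53980, AT4G33550, LTP3 and LTP4. The difference, gi-2 minus wild type, was -3.58 ± 0.71, -2.91 ± 0.54, -2.84 ± 0.51, -2.37 ± 0.67 and -3.19 ± 2.56 in the same order. The SE of 2.56 for LTP4 was derived from F and is wider than the SEs of its parts, 1.1 in gi-2 and 0.79 in wild type, would give. It is therefore only a rough measure. The difference, aba1-6 minus wild type, was -0.73 ± 0.64 for AT3G53980, -1.01 ± 0.58 for AT4G33550 and 0.37 ± 0.85 for LTP3. Across the 19037 genes tested, the drought effect was called at adjusted p under 0.05 for 5.17% in gi-2 (1.64% higher, 3.53% lower), 9.32% in aba1-6 (4.01% higher, 5.31% lower) and 23% in wild type (10.2% higher, 12.7% lower). Its difference from wild type was called for 6.96% in gi-2 (3.87% higher, 3.09% lower) and 2.74% in aba1-6 (1.83% higher, 0.914% lower). These shares are background and nothing about the 5 is read from them. All 5 genes passed the filter on low counts. The gi-2 and aba1-6 differences share the wild-type libraries.

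Over both waterings together, all 5 genes had a lower mean in aba1-6 and in gi-2 than in wild type. The wild-type drought libraries, for whose high level the genes were chosen, are in these contrasts, so the values are a description with no test. Over 16 libraries each, AT2G37870 averaged 2.01 CPM in gi-2, 2.02 CPM in aba1-6 and 10.7 CPM in wild type. AT3G53980 averaged 4.65 CPM in gi-2, 4.17 CPM in aba1-6 and 18.1 CPM in wild type, with log2 fold changes from wild type of -1.11 ± 0.28 in gi-2 and -1.85 ± 0.31 in aba1-6 (± SE). AT4G33550 averaged 2.67 CPM in gi-2, 2.32 CPM in aba1-6 and 8.31 CPM in wild type, with -0.86 ± 0.26 in gi-2 and -1.47 ± 0.28 in aba1-6. LTP3 averaged 34.9 CPM in gi-2, 27.1 CPM in aba1-6 and 85.3 CPM in wild type, with -0.81 ± 0.34 in gi-2 and -1.94 ± 0.4 in aba1-6. LTP4 averaged 10.4 CPM in gi-2, 7.08 CPM in aba1-6 and 41.1 CPM in wild type, with -1.84 ± 1 in gi-2. Among all genes, 30.5% were called in gi-2 (16.3% higher, 14.3% lower) and 30% in aba1-6 (15% higher, 14.9% lower).

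Ordered by mean level over the 6 combinations of genotype and watering, wild-type drought, for whose high level the genes were chosen, came highest for every gene. For AT3G53980 and AT4G33550 its 8 libraries did not overlap those of the next group, and for AT2G37870, LTP3 and LTP4 they did. How many of all genes show such a gap was not counted. For all but LTP4, aba1-6 drought came next and gi-2 drought after it, and these 2 groups overlapped. For LTP4 the order below wild-type drought was gi-2 normal (14.4 CPM), aba1-6 drought (12.1), wild-type normal (11.1), gi-2 drought (6.39) and aba1-6 normal (2.11), with each overlapping the next. The lowest mean was aba1-6 normal for all 5 genes.

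Levels over the day varied, but the 2 libraries of a time often differed as much as the times did. AT2G37870 had 14.5 and 23.9 CPM at ZT1, 9.83 and 9.49 at ZT8, 44.7 and 16.4 at ZT12 and 21.4 and 24.6 at ZT16 in wild-type drought libraries. The lowest time was ZT8, and the 2 libraries of ZT12 differed more than the times did. In the same libraries AT3G53980 had 28.4 and 42.4, 32.3 and 25.3, 53.6 and 21.5, and 27.2 and 28.9 CPM in order of time, with every neighbouring pair of times overlapping. AT4G33550 under drought also overlapped from time to time, whereas in watered wild type it had 3.58 and 1.92 CPM at ZT1, 1.78 and 1.6 at ZT8, 1.04 and 0.842 at ZT12 and 0.793 and 0.778 at ZT16, with no overlap between neighbours.

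LTP3 in watered wild type had 57.4 and 26.5 CPM at ZT1, 16.9 and 31.8 at ZT8, 18.2 and 36.5 at ZT12 and 5.69 and 4.82 at ZT16. LTP4 in the same libraries had 27.8 and 3.29, 24.2 and 7.67, 10.4 and 14.6, and 0.793 and 0.311 CPM. Both were lowest at ZT16, below all other times. Under drought the wild-type LTP3 levels at ZT16 were 101 and 248 CPM and those of LTP4 62.5 and 106 CPM, with no such low point. The wild-type drought effect on LTP3 was therefore 1.7 ± 0.86, 2.06 ± 0.9, 2.45 ± 0.92 and 5 ± 1.13 at ZT1, ZT8, ZT12 and ZT16, and on LTP4 1.78 ± 1.29, 1.58 ± 1.31, 3 ± 1.36 and 7.14 ± 2.07 (log2 ± SE). The last value rests on watered levels near 0. A dependence of the wild-type drought effect on time was not called for LTP3 or LTP4 (adjusted p of 0.664 and 0.728, edgeR). Watered gi-2 leaves had their lowest mean levels of both genes at ZT16 as well, with 5.58 and 14.3 CPM of LTP3 and 0 and 0.22 CPM of LTP4. Watered aba1-6 leaves did not: both genes were lowest at ZT1, with 1.04 and 0.92 CPM of LTP3 and no read of LTP4, and ZT16, with 12.9 and 3.21 CPM of LTP3 and 6.7 and 0.0803 CPM of LTP4, was second highest after ZT8.

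**Figure D3:**
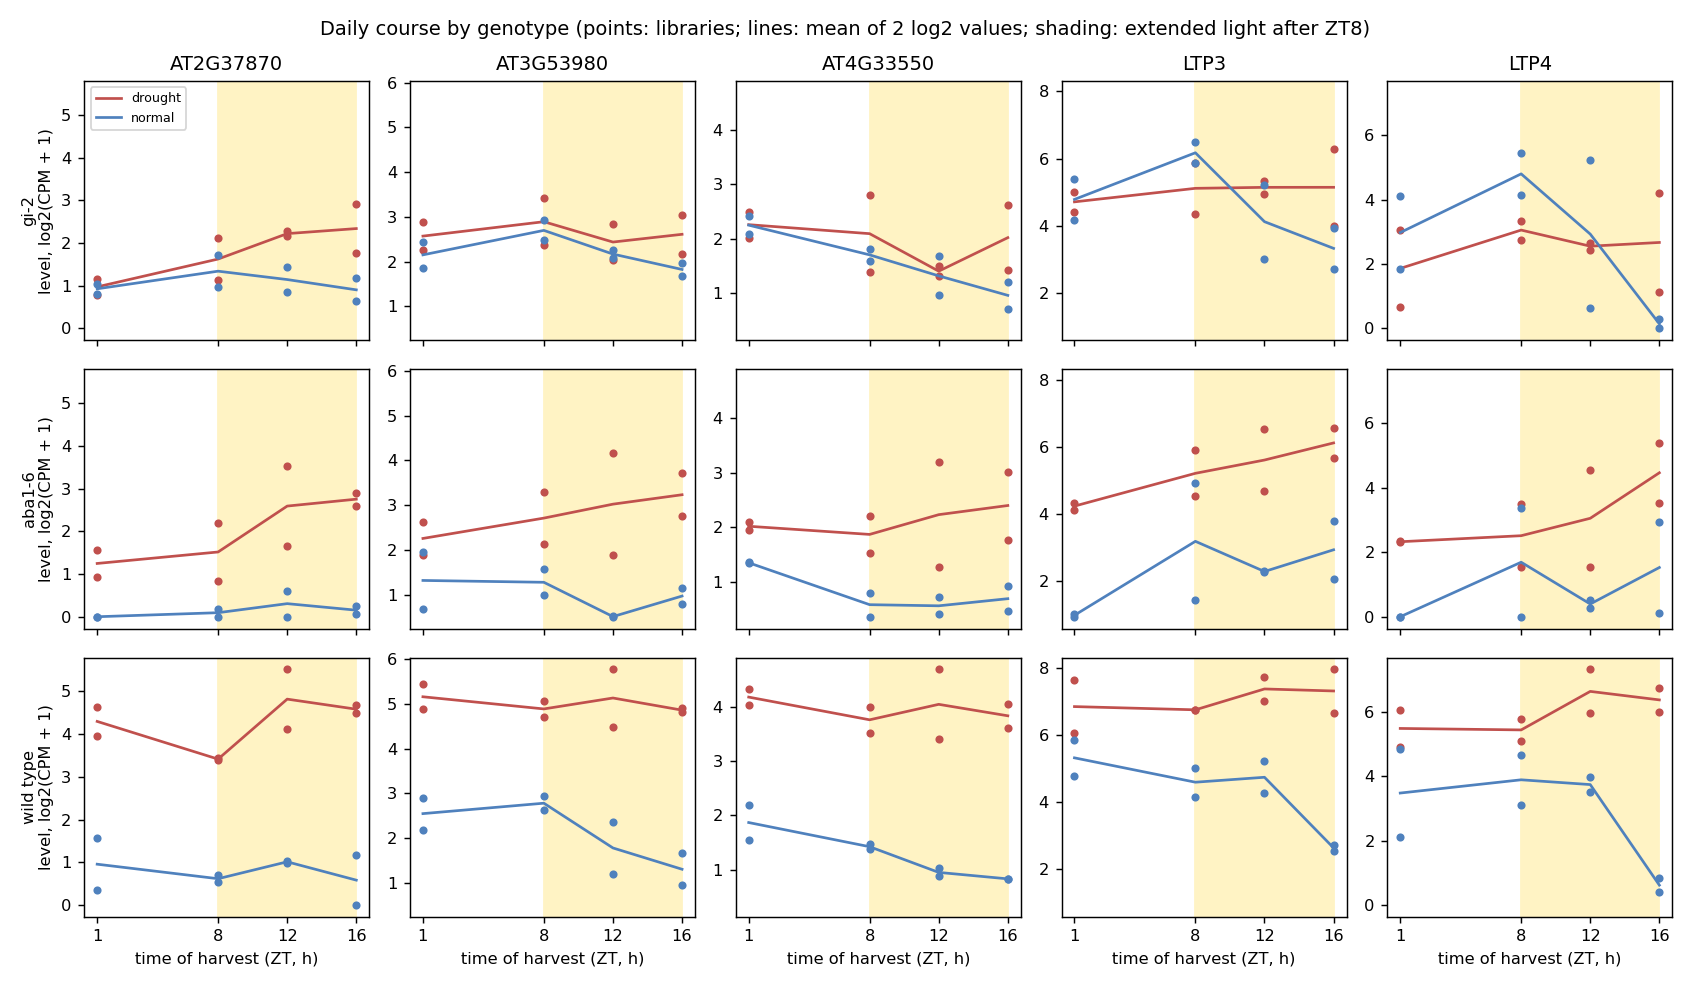
Level of each gene as log2(CPM + 1) at ZT1, ZT8, ZT12 and ZT16 (hours after lights on) in gi-2, aba1-6 and wild type, with points for libraries and lines through the mean of 2; shading marks the extended light after ZT8. In wild type the dry and watered lines of LTP3 and LTP4 are farthest apart at ZT16, where the watered libraries have 5.69 and 4.82 CPM of LTP3.

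In edgeR the effect of time of day was called for 0 of 5 genes in gi-2, aba1-6 and wild type, against 42.3%, 53.2% and 54.4% of all genes; at an unadjusted p under 0.05 the counts were 1 (AT4G33550), 0 and 0, and DESeq2 called 0, 3 (AT2G37870, LTP3 and LTP4) and 0. The test of whether the drought effect differed between times called 0 of 5 in each genotype, with 0 at an unadjusted p under 0.05 and 0 by DESeq2, which gave no adjusted p for 2 of the genes in aba1-6. Few genes of any kind passed that test, at 0.404%, 0.184% and 0.819% of all genes in gi-2, aba1-6 and wild type; with the replicate number as a block the counts rose to 299, 161 and 520, against 77, 35 and 156, and still held none of the 5. Whether a mutant's difference from wild type depended on time was called for 0 of 5 in gi-2 (8.08% of all genes; 0 at an unadjusted p under 0.05; 0 by DESeq2) and 0 of 5 in aba1-6 (3.58%; 1, LTP3, at an unadjusted p under 0.05; 2, LTP3 and LTP4, by DESeq2). The time-of-day effect on AT4G33550 in gi-2 passed without the library with the conflicting label (adjusted p = 0.0409), without gi-2 drought ZT8 replicate 2 (adjusted p = 0.0481) and with only the gi-2 libraries fitted (adjusted p = 0.014), and that on LTP3 in aba1-6 passed without aba1-6 normal ZT8 replicate 1 (adjusted p = 0.0395, all edgeR). Without the filter on low counts, where edgeR drew each gene's spread fully to a common value (quasi-dispersion of LTP3 0.874, against 30.3 with the filter), LTP3 and LTP4 passed all of these tests by time and the other 3 passed some.

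The 5 genes varied more between replicate libraries than most genes. The fitted biological coefficient of variation was 57.5% for AT2G37870, 47.5% for AT3G53980, 41.7% for AT4G33550, 64% for LTP3 and 110% for LTP4, while genes of the same level had 20.2, 15.5, 20.3, 9.79 and 12.4% on the fitted trend. Of the 19037 genes tested, 1.02, 2.29, 3.85, 0.751 and 0.116% had a larger one. Without the filter on low counts these shares were 16.7, 20.9, 22.7, 8.8 and 0.283% of 23655 genes. The deviations were shared among the 5: in 11 of the 24 groups the same replicate was higher for all 5 genes. The replicate differences of pairs of genes correlated across the 24 groups with r of 0.51 to 0.9, highest for LTP3 and LTP4, whose reads can be confused. How other sets of genes behave in this was not counted. Same-numbered wild-type libraries also deviated together over 5000 genes, in 28 of 28 pairs of groups, so nothing particular to the 5 is read from this. In aba1-6 drought ZT12, replicate 2 was below replicate 1 for every gene, by -1.87, -2.28, -1.94, -1.86 and -3.0 on the log2(CPM + 1) scale. Correlations of the replicate differences with the difference in read total were -0.03 to 0.26, given as a description since all genes share the libraries.

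**Figure D4:**
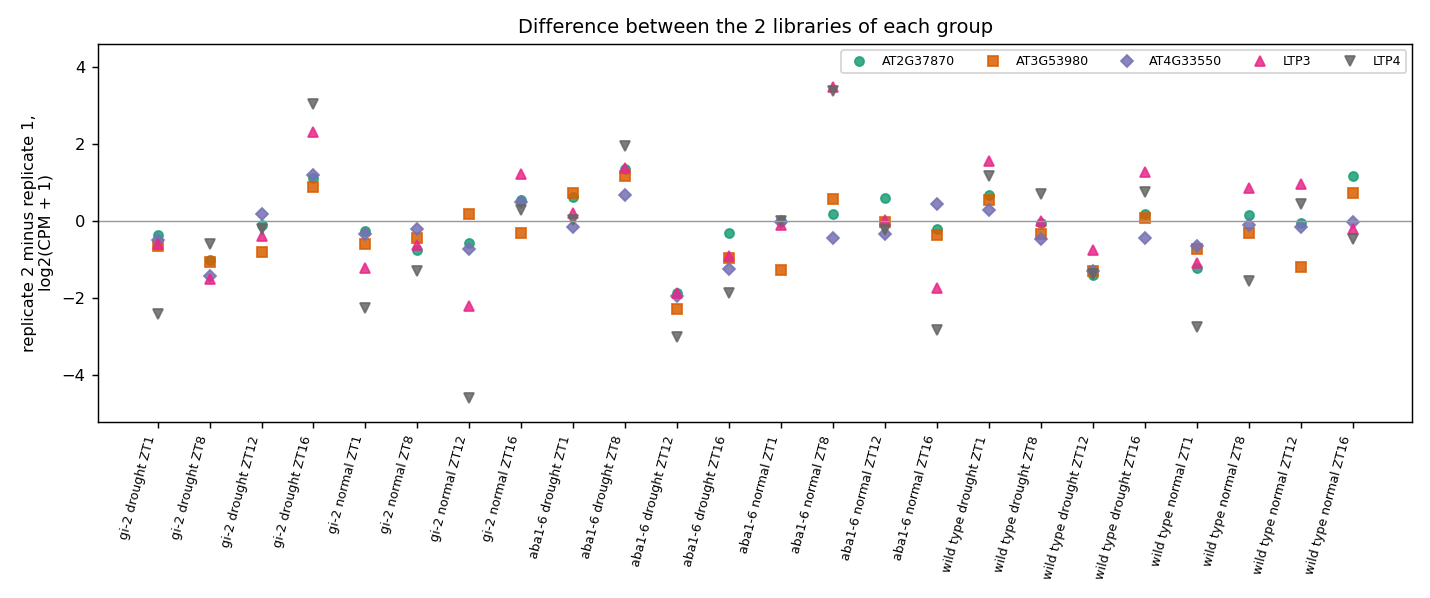
Replicate 2 minus replicate 1 in log2(CPM + 1) for each gene (symbols) in the 24 groups of 2 libraries, with drought groups left of normal ones. The symbols of a group tend to lie on the same side of 0, on which all 5 lay in 11 groups.

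Group means of the 5 genes, as log2(CPM + 1), correlated with each other with r of 0.81 to 0.96 over the 24 groups, which share the drought contrast that chose the genes. LTP4 made up a different part of the summed LTP3 and LTP4 reads in different groups. Its share was 2.78, 13.4 and 22.8% (lowest, median, highest) in gi-2 drought and 0, 17.9 and 50% in gi-2 normal libraries. In aba1-6 it was 7.29, 17.5 and 30.6% under drought and 0, 3.78 and 34.1% under normal watering. In wild type it was 23.6, 31.2 and 42.5% under drought and 6.06, 24 and 58.9% under normal watering. All 8 gi-2 drought shares were below all 8 wild-type drought shares, by a narrow margin (22.8% at the highest against 23.6% at the lowest). The medians of gi-2 normal, aba1-6 drought and aba1-6 normal libraries were below that of wild-type drought as well. These shares are a description, with the division of reads between the 2 genes as deposited. The high levels of the wild-type drought libraries chose the genes, and how many pairs of genes separate so was not counted.

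Most of the wider family did not rise with drought; the 5 genes themselves were chosen for their rise. Of 134 other genes annotated with a lipid-transfer product, 8 of them for glycolipid transfer or lipid-binding START domains, 54 passed the filter on low counts. In gi-2, 0 of these rose and 11 fell with drought; in aba1-6, 5 rose and 10 fell; in wild type, 8 rose and 17 fell. Their median log2 fold changes were -0.22, -0.1 and -0.12, beside medians over all genes of 0, 0 and 0.01. Of all genes tested, 1.64% rose and 3.53% fell in gi-2, 4.01% and 5.31% in aba1-6, and 10.2% and 12.7% in wild type. The largest rise called in wild type was that of AT5G05960, 0.84 ± 0.14 (adjusted p = 7.15e-06, edgeR), picked out after its value was seen, and it is below the smallest of the 5 at 2.8. The difference of the drought effect, gi-2 minus wild type, was called higher for 4 and lower for 6 of the 54, beside 3.87% and 3.09% of all genes.

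**Figure D5:**
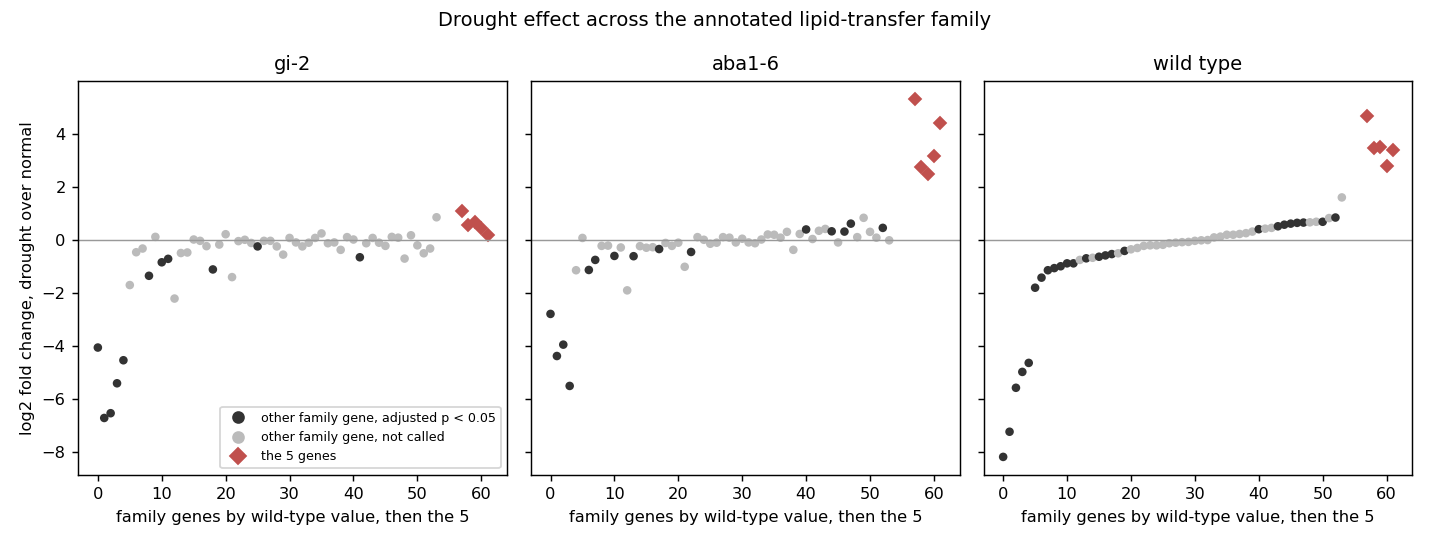
Log2 fold change of drought over normal watering for 54 other genes of the lipid-transfer family, ordered by their wild-type value, and for the 5 genes (diamonds), in gi-2, aba1-6 and wild type; dark points passed adjusted p under 0.05. The diamonds stand above the family in wild type, where 8 other members rose and 17 fell.

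The 4 largest changes called in the family in wild type were all decreases: pEARLI_1 had 0.0877 CPM under drought and 27.0 CPM under normal watering, AT4G12490 had 0.105 and 12.5 CPM, AT4G12545 had 0.0257 and 1.22 CPM, and AT4G22470 had 0.0934 and 3.5 CPM. They were low under drought in the mutants as well, with pEARLI_1 at 1.34 CPM under drought and 30.6 CPM under normal watering in gi-2 and 2.53 and 16.9 CPM in aba1-6. AZI1, a relative of pEARLI_1 known from systemic defence priming, fell by 2.49 ± 0.44 in wild type (adjusted p = 0.000127), to 1.46 CPM under drought, against 8.66 CPM under normal watering. In gi-2 it had 34.2 CPM under drought and 40.7 CPM under normal watering and its change was -0.53 ± 0.2 (adjusted p = 0.137), in aba1-6 12.7 and 17.3 CPM and -0.14 ± 0.23 (adjusted p = 0.806). Its drought effect differed from that of wild type by 1.96 ± 0.5 in gi-2 (adjusted p = 0.0147) and by 2.35 ± 0.51 in aba1-6 (adjusted p = 0.00981).

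Of LTP1, LTP2, LTPG1, LTPG2, DIR1 and AZI1, named whatever their values, only LTP1 (listed as LP1), an abundant epidermal lipid transfer protein, rose in wild type. LTP6, outside that choice, rose as well, by 0.65 ± 0.1 (adjusted p = 1.33e-06, edgeR). The LTP6 changes were 0.08 ± 0.09 in gi-2 (adjusted p = 0.727) and 0.61 ± 0.09 in aba1-6 (adjusted p = 1.13e-05). LTP1 had 1666 CPM under drought and 1071.5 CPM under normal watering in wild type, a rise of 0.64 ± 0.08 (adjusted p = 1.83e-08). It had 1159 and 1075.3 CPM in gi-2, a change of 0.11 ± 0.08 that did not pass (adjusted p = 0.477), and 1025.6 and 826 CPM in aba1-6, a rise of 0.31 ± 0.08 (adjusted p = 0.00496). The gi-2 effect on LP1 differed from that of wild type by -0.52 ± 0.11 (adjusted p = 0.0013). LTP2, LTPG1 (a membrane-anchored protein of wax export) and DIR1 (a carrier in systemic resistance) had wild-type changes of 0.45 ± 0.21, 0.02 ± 0.07 and -0.01 ± 0.17 that did not pass (adjusted p of 0.127, 0.847 and 0.985). LTPG2 (AT3G43720) fell by 0.64 ± 0.13 in wild type (adjusted p = 0.000393) and its effect in gi-2 was higher by 0.65 ± 0.18 (adjusted p = 0.0209).

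Genes of wax and cutin synthesis moved in both directions. Of 30 such genes 27 were tested: 0 rose and 2 fell with drought in gi-2, 3 rose and 5 fell in aba1-6, and 5 rose and 9 fell in wild type, with medians of 0.03, -0.08 and -0.05 beside 0, 0 and 0.01 over all genes, of which 1.64% rose and 3.53% fell in gi-2, 4.01% and 5.31% in aba1-6, and 10.2% and 12.7% in wild type. WSD1, a wax ester synthase, rose by 2.04 ± 0.19 in wild type (adjusted p = 1.31e-09), to 54.8 CPM under drought, against 11 CPM under normal watering. In gi-2 it had 16.5 CPM under drought and 9.87 CPM under normal watering and a change of 0.58 ± 0.19 that did not pass (adjusted p = 0.0834), and the difference from wild type was -1.46 ± 0.27 (adjusted p = 0.000673). KCS2, a fatty acid elongase, rose by 1.3 ± 0.13 in wild type (adjusted p = 1e-09), and its effect in gi-2 differed by -0.91 ± 0.18 (adjusted p = 0.000965). CER1, of alkane synthesis, rose by 0.98 ± 0.15 in wild type (adjusted p = 1.48e-05), with 568 CPM under drought and 250 CPM under normal watering. Unlike WSD1 and KCS2, CER1 was not lower in dry gi-2 than in dry wild type, at 624 CPM. Its watered gi-2 level lay between the wild-type levels of 250 and 568 CPM, and no rise of CER1 was called in gi-2. DEWAX (AT5G61590), a repressor of wax genes, fell by 1.31 ± 0.17 in wild type (adjusted p = 4.17e-07) and by 0.6 ± 0.14 in gi-2 (adjusted p = 0.00664). In aba1-6, levels under drought and normal watering were 9.07 and 3.42 CPM for WSD1, 21 and 8.83 for KCS2, 211 and 105 for CER1 and 20.9 and 48.7 for DEWAX. Each of these aba1-6 changes was called in 25 of 25 alternative analyses. MYB96 rose by 0.41 ± 0.11 in wild type (adjusted p = 0.00355), with 28.3 CPM under drought and 20.3 CPM under normal watering, and its changes of 0.04 ± 0.1 in gi-2 and 0.17 ± 0.1 in aba1-6 did not pass (adjusted p of 0.891 and 0.344). The difference between gi-2 and wild type was not called for MYB96 (-0.37 ± 0.15, adjusted p = 0.128).

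Over both waterings, 12 of the 54 family genes were higher and 7 lower in gi-2 than in wild type, and 11 higher and 17 lower in aba1-6. Of all genes, 16.3% were higher and 14.3% lower in gi-2, and 15% higher and 14.9% lower in aba1-6. Of the 27 wax and cutin genes, 15 were higher and 1 lower in gi-2 (median 0.24), and 3 were higher and 13 lower in aba1-6 (median -0.18), beside medians over all genes of 0 and 0.01.

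The genes whose levels followed each member most closely over the 24 group means, by Pearson's r of log2(CPM + 1), were in part the other members. For AT2G37870 they were AT4G08570 (0.956), AT5G15500 (0.943), AT3G53980 (0.93), HB-7 (0.921) and HAI2 (0.907). For AT3G53980 they were AT4G33550 (0.959), AT2G37870 (0.93), AT1G64110 (0.922), LTI65 (0.918) and HSFA6A (0.915), and for AT4G33550 AT3G53980 (0.959), AT3G15350 (0.946), HB-7 (0.946), AT2G41190 (0.908) and AT2G37870 (0.906). HB-7 is a homeodomain factor, HAI2 a protein phosphatase of the ABA pathway and LTI65 (RD29B) a widely used ABA reporter gene. LTP3 was closest to LTP4 (0.929), ENODL1 (0.913), AT3G53980 (0.898), HIS1-3 (0.894) and AT2G41190 (0.892), and LTP4 to LTP3 (0.929), AT3G53980 (0.883), AT5G50360 (0.853), AT3G02480 (0.852) and LEA4-5 (0.843), a late embryogenesis abundant protein.

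The levels of 3 of these genes, all known from ABA responses, are given as examples. The ranking used group means that hold the drought contrast by which the members were chosen. HAI2 had 7.75 CPM under drought and 3.93 CPM under normal watering in gi-2, 3.86 and 0.417 CPM in aba1-6, and 31.2 and 2.62 CPM in wild type. LTI65 had 20.7 and 12.5 CPM in gi-2, 26.6 and 0.685 CPM in aba1-6, and 93.2 and 8.15 CPM in wild type. HB-7 had 33.5 and 22.2 CPM in gi-2, 36.7 and 15.4 CPM in aba1-6, and 90.9 and 20.5 CPM in wild type. In gi-2, AT3G02480 (1.75 and 5.19 CPM), AT5G50360 (0.962 and 1.32 CPM) and HIS1-3 (19.6 and 20.7 CPM) had lower means under drought. The other nearest genes outside the members had higher ones there. With a pseudocount of 0.1 in place of 1, 2 of the 5 nearest genes were shared for AT2G37870 and LTP3, 3 for LTP4, 4 for AT4G33550 and 5 for AT3G53980.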

How the data were processed

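The deposited table holds expected counts per gene for 48 libraries; per the submitters' processing notes the tools were Bowtie2, RSEM and edgeR with TAIR10, and the sources used here give neither versions nor a strand setting. Of its values 98.6% are whole numbers, including all values of the 5 genes; the others were rounded. In the deposited file's last column a trailing tab changes the format, and its values were read as the same expected counts. Of 26988 rows, 26238 matched a locus of TAIR10.1 (RefSeq), from which coordinates and sequences come, and 750 did not.

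Genes were filtered with filterByExpr (19037 kept), scaled by TMM (factors 0.862 to 1.14) and fitted with edgeR 4.0.16 in R 4.3.3 (robust quasi-likelihood, 24 group means, all 48 libraries), with Benjamini-Hochberg adjustment over all genes tested and a threshold of 0.05. The SE of a log2 fold change is its size divided by the square root of F. No SE is given where a group had 0 reads. DESeq2 1.42.0 was an alternative. Libraries come from pooled seedlings, and what separates the replicates beyond the label is not given, so p-values measure the spread between these libraries.

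Same-numbered libraries deviated together in wild type (correlation over 0.1 in 28 of 28 pairs of groups, over 5000 genes) but in 12 of 28 pairs in gi-2 and 12 of 28 in aba1-6; the number was added as a block within each genotype as an alternative.

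The 5 genes, the lists and the tests were chosen with earlier results of these data known. Named genes are the 5, for each the 5 genes with the highest correlation of group means, the 4 largest called changes in wild type of each list, and MYB96, LTP1, LTP2, LTPG1, LTPG2, DIR1 and AZI1. AT5G05960 and LTP6 were added after their values were seen. The contrasts of each mutant with wild type over both waterings were planned as tests but are given for the 5 genes as a description, since they use the wild-type drought libraries on which the genes were chosen. The scripts were tested on simulated data. Alternatives were DESeq2, its size factors, no filter, fits of the compared libraries alone, the block, and leaving out libraries.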

Additional observations from a re-analysis of the deposited data

Results flagged for a closer look

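Of 30 sets of 8 libraries (5 genes in 6 combinations of genotype and watering), 4 held a library far from the other 7, in each case the highest. Chance would flag about 1 in 20 sets if the 8 values followed a single normal distribution. The libraries of a set span 4 times and recur for genes that vary together, so that rate is only a rough guide. AT2G37870 had 0.529 CPM in aba1-6 normal ZT12 replicate 2, with the others at 0 to 0.189 CPM, and the mean of 0.112 CPM is 0.0527 CPM without it. AT2G37870 had 44.7 CPM in wild type drought ZT12 replicate 1, with the others at 9.49 to 24.6 CPM, and the mean of 20.6 CPM is 17.2 CPM without it. AT4G33550 had 3.58 CPM in wild type normal ZT1 replicate 1, with the others at 0.778 to 1.92 CPM, and the mean of 1.54 CPM is 1.25 CPM without it. LTP3 had 29.4 CPM in aba1-6 normal ZT8 replicate 2, with the others at 0.92 to 12.9 CPM, and the mean of 7.12 CPM is 3.94 CPM without it.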

How the results depend on the processing

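Low read numbers limit AT2G37870 and LTP4, which had 0 reads in some watered libraries. Without the filter on low counts the prior degrees of freedom became infinite, and counts rose to 1326 (aba1-6 by time, 682 in the main analysis), 998 (aba1-6 difference of drought effect, 522), and 393, 540 and 704 (drought by time in aba1-6, gi-2 and wild type; 35, 77 and 156). DESeq2 gave 103, 178 and 274 for those 3, and leaving out the 2 shallowest libraries gave 60 in aba1-6. With only the compared libraries fitted, they were 120, 637 and 17, with 304 for aba1-6 by time, 305 for its difference of drought effect, and 1964 (984) and 2456 (4371) for the drought effect in gi-2 and wild type. With the replicate block, counts were 161, 299 and 520 for drought by time in aba1-6, gi-2 and wild type, 1531 for aba1-6 by time, 1510 and 2678 (1325) for the differences of drought effect in aba1-6 and gi-2, 1615 for the drought effect in gi-2 and 3681 (5813) for gi-2 over both waterings. The cause was not tested.

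Leaving out 1 library at a time gave 16 to 50, 13 to 79 and 108 to 248 genes for drought by time in aba1-6, gi-2 and wild type, 376 (without aba1-6 drought ZT1 replicate 1) to 1058 (without wild type drought ZT16 replicate 1) for aba1-6 by time, 301 to 834 and 962 to 1998 for the differences of drought effect in aba1-6 and gi-2 (lowest without wild type drought ZT1 replicate 2, highest without wild type drought ZT16 replicate 1), and 631 (without gi-2 drought ZT8 replicate 1) to 897 for the drought effect in gi-2. The lowest and highest drought-by-time counts came without aba1-6 drought ZT1 replicate 2 and aba1-6 normal ZT1 replicate 2, gi-2 drought ZT1 replicate 2 and gi-2 normal ZT8 replicate 1, and wild type normal ZT8 replicate 1 and wild type drought ZT16 replicate 1.

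The LTP4 drought effect in gi-2 (0.18) was 1.43 without gi-2 normal ZT12 replicate 1, -0.52 without gi-2 drought ZT1 replicate 1 or gi-2 drought ZT16 replicate 2 and -0.08 without gi-2 normal ZT12 replicate 2, and the aba1-6 difference for AT2G37870 was 1.91 without aba1-6 normal ZT12 replicate 2 and -0.77 without wild type normal ZT16 replicate 2. Tests of the members by time kept their side of the threshold 797 times with a library left out, with 3 calls gained, and 325 times in the other alternatives, with 33 gained; 0 were lost, as there were none to lose. DEWAX's gi-2 difference passed in 16 of 41 alternatives.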
